A study of Mus musculus with 10 samples.

Results

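The 10 genes described here encode apolipoproteins and proteins that export or modify cholesterol or sense its derivatives. They are the apolipoprotein genes *Apoe*, *Apoc1*, *Apod* and *Clu*, the exporter genes *Abca1* and *Abcg1*, the esterification genes *Lcat* and *Soat1*, the oxysterol gene *Ch25h* and the nuclear receptor gene *Nr1h3*. They were taken by their symbols, for their known roles, from the 25232 genes of the deposited table, and all 10 of 10 were found there. RNA was sequenced from the spinal cord of 5 WT mice and 5 mice of the *SOD1* G93A genotype, all females of 90 days on the C57BL/6 strain. The *SOD1* G93A mice carry a high copy number of a human *SOD1* transgene with a mutation of familial ALS, and the WT mice were their littermates. The methods place the dissection in the lumbar region, where the labels name only the spinal cord.

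The table gives 1 level for each gene, the authors' base mean, which is the mean over all libraries of both genotypes of read counts divided by library size factors. It has no value for a single mouse, so no SD can be attached to a level. The other columns hold the authors' own comparison of the genotypes and were not used. The levels below therefore describe both genotypes together, and no difference between the genotypes is given here. In bulk tissue, fewer cells of a type and less RNA per cell cannot be told apart.

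Cholesterol in the central nervous system is made locally, because lipoproteins of the blood do not cross the barrier into the tissue. Glial cells load it with ABC transporters onto lipoprotein particles built around apolipoprotein E, and neurons take these particles up through receptors at their surface. Cells that hold too much sterol make oxysterols, which activate the liver X receptors, and these raise the transcription of the exporters and of *Apoe*.

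The size factors of the libraries could be read from the lowest values of the table. A gene with 1 read in 1 library has a base mean set by the size factor of that library alone, and 716 genes fell on 10 such values. The 10 size factors lay between 0.840 and 1.15, so that the largest size factor was 1.37 times the smallest. All 1128 values under 3 reads were sums of 1 or 2 of these steps within 2e-09. The 716 that lie on the steps match by construction, so only the rest of the 1128 check this reading. Which mouse has which size factor is not known. The base means of all genes summed to 22158933, and 20973 genes were above 0, with a median base mean of 247. Mouse *Sod1*, whose reads may include some of the similar human transgene, had a base mean of 3849.

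Markers of the tissue were present. The oligodendrocyte list ran from 3138 for *Mog* to 37740 for *Mbp*, the astrocyte list from 431 for *Aldh1l1* to 13345 for *Gfap*, and the neuronal list from 601 for *Rbfox3* to 14045 for *Nefl*, all as base mean per kilobase of exons. On the same scale, the motor neuron list ran from 11.5 for *Isl1* to 485 for *Slc18a3* and the microglial list from 72.2 for *Aif1* to 527 for *Csf1r*. Endothelial markers lay between 101 for *Pecam1* and 501 for *Cldn5*, fibroblast and meningeal markers between 27.5 for *Lum* and 112 for *Dcn*, and choroid plexus markers between 3.87 for *Folr1* and 31.8 for *Ttr*. Markers of Schwann cells, which are found in nerve roots, reached 1418 for *Pmp22*, with *Prx* lowest at 86.8 per kilobase. The skeletal muscle list spanned 33.8 for *Myh4* to 163 for *Acta1*, and the hepatocyte list spanned 0.156 for *Cyp7a1* to 402 for *Apoa2*. Of the 3 blood genes, *Alas2* had 57.1 per kilobase, while *Hbb-bs* and *Hba-a1* were listed at 0. Genes with near-identical copies, such as *Hbb-bs* and *Hba-a1*, lose reads when only unique matches are counted. Their 0 therefore does not show that blood RNA was absent. The part of each cell type in the levels of the 10 genes was not tested.

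Stretches of DNA just before transcription starts show how different the control regions of these genes are. They are the 250 bases before a RefSeq start on GRCm38.p6, written 5′ to 3′ on the gene's own strand, for the most abundant gene (*Apoe*), the gene with the lowest GC content there (*Apod*), an exporter (*Abca1*) and the least abundant gene (*Ch25h*). All 4 lie on the minus strand, at chr7:19699189-19699438, chr16:31314809-31315058, chr4:53159896-53160145 and chr19:34475149-34475398. Capitals mark the letters of the TATA box (TATAAA) and the GC box (GGGCGG), at any distance from the start.
*Apoe*: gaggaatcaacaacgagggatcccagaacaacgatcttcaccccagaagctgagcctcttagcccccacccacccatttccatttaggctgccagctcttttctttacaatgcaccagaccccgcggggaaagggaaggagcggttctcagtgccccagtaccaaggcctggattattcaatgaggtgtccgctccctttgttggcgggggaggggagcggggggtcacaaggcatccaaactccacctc
*Apod*: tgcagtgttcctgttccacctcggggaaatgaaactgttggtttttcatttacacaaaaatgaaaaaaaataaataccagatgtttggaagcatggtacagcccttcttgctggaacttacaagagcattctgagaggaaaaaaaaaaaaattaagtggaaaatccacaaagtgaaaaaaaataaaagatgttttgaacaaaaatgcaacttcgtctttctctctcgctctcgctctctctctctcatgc
*Abca1*: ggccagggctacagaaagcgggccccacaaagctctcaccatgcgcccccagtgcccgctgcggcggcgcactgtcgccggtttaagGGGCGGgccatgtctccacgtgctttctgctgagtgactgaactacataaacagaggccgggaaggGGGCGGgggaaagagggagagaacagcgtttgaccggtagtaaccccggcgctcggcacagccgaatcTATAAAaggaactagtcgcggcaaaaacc
*Ch25h*: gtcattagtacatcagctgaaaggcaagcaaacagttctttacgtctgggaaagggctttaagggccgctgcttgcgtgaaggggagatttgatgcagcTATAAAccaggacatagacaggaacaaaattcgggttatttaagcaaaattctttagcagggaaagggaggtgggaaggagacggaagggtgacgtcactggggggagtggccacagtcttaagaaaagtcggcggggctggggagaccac

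The *Abca1* stretch holds a TATA box 29 bases before the start and GC boxes at 97 and 163 bases. The *Ch25h* stretch holds the letters TATAAA at 151 bases, and the *Apoe* and *Apod* stretches shown hold neither motif. Before another RefSeq start of *Apoe*, at base 19698621, TATAAA lies at 96 bases and again, on the opposite strand, at 100 bases. The GC content was 36.4% before *Apod*, 50.4% before *Ch25h*, 57.2% before *Apoe* and 61.6% before *Abca1*, against a median of 52.4% over the 32851 starts of the table. Over all these starts, searched on both strands, TATAAA was found in 12.37% and GGGCGG in 32.74%. The table held 10 starts of 7 of the genes, all but *Apoc1*, *Clu* and *Abcg1*, and 3 of the 10 held TATAAA and 1 held GGGCGG. Whether any match works as a promoter element was not tested. The motif AGGTCA, bound by the liver X receptor and related nuclear receptors, was found before 0 of the 10 starts and before 14.02% of all starts. Only these exact letters were counted, so bound sites with other letters would be missed. The 10 starts belong to 7 genes, and some stretches of *Apoe* and of *Nr1h3* overlap. The count is therefore too small to show that these genes hold fewer copies of the motif than others.

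A liver X receptor and its partner bind an element of 2 copies of this motif. Its ideal form has both copies on 1 strand with 4 bases between them. It was searched on both strands from 250 bases before to 50 bases after the start. It was found for 0 of the 7 genes with a promoter, and for 0 of 7 listed receptor targets with one (*Abca1*, *Apoe*, *Mylip*, *Lpcat3*, *Srebf1*, *Pltp* and *Abca7*). Among all 27025 genes with a promoter, 4 held it (0.0148%), none of which was among the genes listed above 0. These were *1700024I08Rik*, *4933427I04Rik*, *Gm32219* and *Gm34822*, named after the search. With 1 mismatch allowed, the share was 0.278% of all genes and again 0 of the 7. These letters are rare in windows of this size, so 0 of 7 was likely for any 7 genes. Elements with more than 1 mismatch were not searched, so the result cannot show that a gene lacks one. The search also covers no enhancer.

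The *Apoe* gene encodes the main apolipoprotein of the nervous system, and it was the most abundant of the 10. It lies on chromosome 7 of GRCm38 from 19696109 to 19699188, with 4 exons in its longest transcript. Its base mean was 32923, which rests on at least 276571 reads over all libraries, with a 95% Poisson interval of 32800 to 33046. Such intervals use the smallest number of reads the size factors allow. They cover counting error only, not the spread between mice, as there are no values of single mice. PCR copies of a read were not told apart by molecular identifiers, so even for counting error the intervals may be too narrow. Per kilobase of exons, *Apoe* had 15399 and was number 6 of the 20358 genes above 0 with a length. The genes just above were *Sparcl1* (28362) and *Tubb4a* (16649), and those just below were *Trf* (15007) and *Psap* (14496). *Sparcl1* is known from astrocytes, *Trf* from oligodendrocytes and *Psap* as the gene of a lysosomal protein.

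*Apod* encodes a small lipid carrier of the lipocalin family, unrelated in fold to apolipoprotein E. The gene is on chromosome 16 from 31296192 to 31314808, and it had a base mean of 15664 and 6078 per kilobase. *Clu*, on chromosome 14 from 65968483 to 65981547, encodes clusterin, a secreted chaperone also known as apolipoprotein J. Its base mean was 17681, and its level per kilobase was 5144. The level of *Apoe* per kilobase was 2.53 times that of *Apod*, or 3.10 times with the longest transcript and 1.28 times with the coding length. It was 2.99 times that of *Clu*, or 2.39 and 2.68 times with these lengths. The coding length divides the same base mean, reads of untranslated parts included, so it raises genes with long untranslated parts. Between *Apod* and *Clu* the ratio was 1.18 (95% counting interval 1.17 to 1.19), but it turned to 0.773 when the length was that of the longest transcript. These 2 genes can therefore not be ordered without knowing which transcripts the tissue makes.

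*Apoc1* encodes a small exchangeable apolipoprotein and is the neighbour of *Apoe*, 3448 bases away on the same strand of chromosome 7, from 19689481 to 19692660. The neighbours differed widely in level. *Apoc1* had a base mean of 55.6 (95% Poisson interval 50.7 to 60.9), with between 467 and 640 reads over all libraries, and 74.7 per kilobase. *Apoe* was 206 times as abundant per kilobase, and 168 to 224 times under the other lengths. Together, *Apoe*, *Clu* and *Apod* made up 92.8% of the summed base means of the 10 genes, and the 10 genes made up 0.322% of the sum over all genes.

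**Figure D1:**
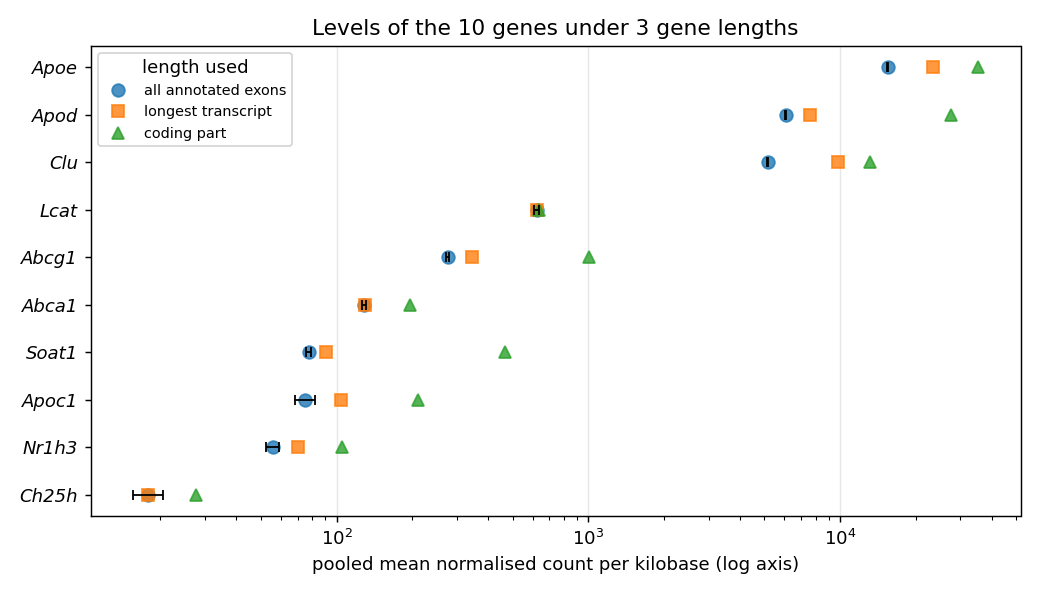
Pooled mean normalised count per kilobase (log axis) of the 10 genes, with circles for the length of all annotated exons, squares for the longest transcript and triangles for the coding part, and bars for 95% Poisson counting intervals of the circles. *Apoe* is highest and *Ch25h* lowest under each of the 3 lengths, while *Apod* and *Clu* change places with the longest transcript.

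The exporters stood lower. *Abca1*, whose protein loads cholesterol and phospholipid onto lipid-poor apolipoproteins, lies on chromosome 4 from 53030787 to 53159895 and has 50 exons. Its base mean was 1331 (95% Poisson interval 1307 to 1356). *Abcg1*, whose protein moves sterol to particles that already carry lipid, lies on chromosome 17 from 31057675 to 31117988 and had a base mean of 2013 (1983 to 2044). Per kilobase the levels were 128 for *Abca1* and 276 for *Abcg1*, a ratio of 2.15, and the ratio was 2.66 with the longest transcript and 5.13 with the coding length.

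*Lcat* encodes the secreted enzyme that esterifies cholesterol on lipoproteins, and *Soat1* encodes the enzyme that does so inside the cell for storage in droplets. *Lcat*, on chromosome 8 from 105939551 to 105943382, had a base mean of 836 (817 to 856), and *Soat1*, on chromosome 1 from 156424525 to 156474331, had one of 758 (740 to 777). These base means are near each other, but the transcripts differ in length. Per kilobase of exons *Lcat* had 623 and *Soat1* had 77.4. Per kilobase of coding length, with reads of untranslated parts still counted, the levels were 636 and 468. The ratio of *Soat1* to *Lcat* was then 0.735, against 0.124 per kilobase of exons. The coding length of *Soat1* is 1620 bases, and its exons cover 9791.

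*Nr1h3* encodes LXRα, one of the pair of liver X receptors. It lies on chromosome 2 from 91184061 to 91202834 and had a base mean of 140 (132 to 148), or 55.7 per kilobase. *Ch25h* encodes cholesterol 25-hydroxylase, which makes the oxysterol 25-hydroxycholesterol and is known as an interferon-induced gene of macrophages. It is a gene of 1 exon on chromosome 19 from 34473778 to 34475164. Its base mean of 24.8 (95% Poisson interval 21.6 to 28.4) rested on 208 to 286 reads over all libraries and was the lowest of the 10. Its level per kilobase was 17.9, and *Apoe* was 861 times as abundant on that scale, or 1307 and 1271 times with the longest transcript and the coding length. The annotation places exons of *Gm26902*, a noncoding gene on the opposite strand, over 159 bases of *Ch25h*, which is 11.5% of its exon. The strand setting of the counting was not given in the sources used here, and *Gm26902* was not a symbol of the table. An exon of *Gm13783* on the same strand covers 34 bases of *Nr1h3*, and exons of no other annotated gene were found over those of the other 8 genes.

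The study measured *Abca1* and *Ch25h* by qPCR as well, in other mice, and its primers are shown because they mark the parts of these RNAs that were read there. Their exact matches were located on the GENCODE M21 transcripts.
*Abca1* forward: ctgacctatgtgctgccgta
*Abca1* reverse: gagccggtcatcaatctcat
*Ch25h* forward: tgctacaacggttcggagc
*Ch25h* reverse: agaagcccacgtaagtgatgat

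The *Abca1* primers, at chr4:53071932-53071951 and chr4:53071874-53071893 of GRCm38, both fell in exon 25 of 50 of the transcript *Abca1*-201 and bound a product of 78 bases. The *Ch25h* primers, at chr19:34475102-34475120 and chr19:34474973-34474994, bound a product of 148 bases in the single exon. All 4 primers lay wholly in coding sequence. The qPCR values were not analysed here.

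Ordered by level per kilobase of exons, the genes ran *Apoe*, *Apod*, *Clu*, *Lcat*, *Abcg1*, *Abca1*, *Soat1*, *Apoc1*, *Nr1h3* and *Ch25h*. Of the 9 pairs of neighbours in this order, *Soat1* and *Apoc1* did not differ beyond counting error, with a ratio of 1.04 (95% counting interval 0.943 to 1.14). The largest step was between *Clu* and *Lcat*, 8.26 times (8.06 to 8.45), and the ratio of this pair was 15.7 with the longest transcript and 20.7 with the coding length. With the longest transcript, *Clu* passed *Apod* and *Apoc1* passed *Soat1*. With the coding length, *Abcg1* passed *Lcat*, and *Soat1* and *Apoc1* passed *Abca1*. Across all genes above 0 the median level per kilobase was 63.5. The genes from *Apoe* to *Apoc1* in the order above lay over that median and *Nr1h3* and *Ch25h* under it, at percentiles 47.8 and 33.6. *Apod* was at percentile 99.7, *Clu* at 99.6, *Lcat* at 91.8, *Abcg1* at 79.9, *Abca1* at 63.6, *Soat1* at 53.5 and *Apoc1* at 52.9.

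**Figure D2:**
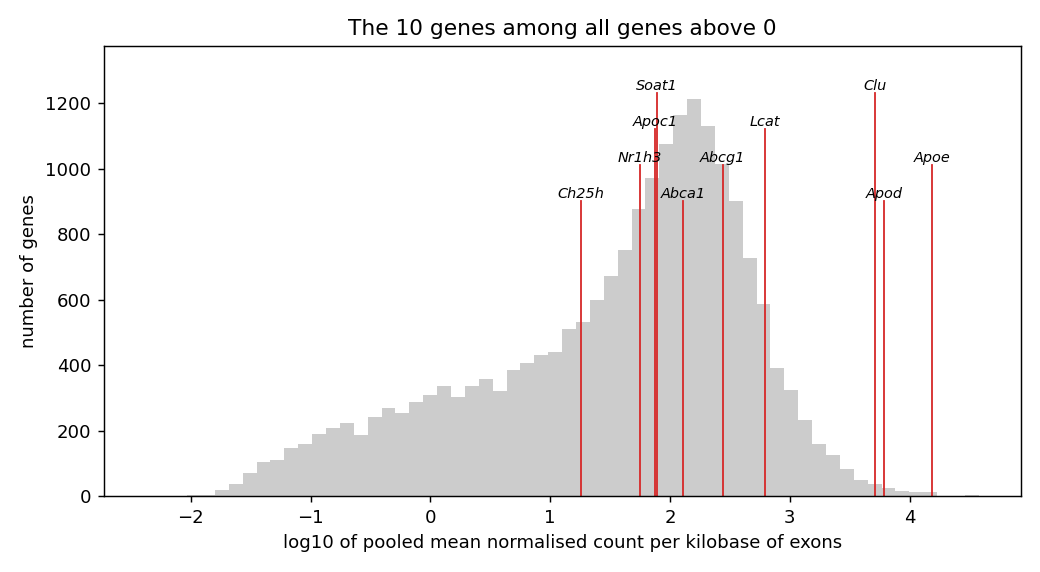
Histogram of all genes above 0 by the log10 of their pooled mean normalised count per kilobase of exons, with a red line for each of the 10 genes whose height only separates the names. *Apoe*, *Apod* and *Clu* lie in the upper tail, and *Ch25h* lies left of the peak, at percentile 33.6.

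Other genes of the pathway were followed in 7 lists of 94 genes in all, and 73 of the 94 had a base mean of at least 10. The share was 63.1% over all genes of the table (15918 of 25232), and it was 10 of 10 for the genes described above. All levels in the next paragraphs are per kilobase of exons.

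In the list of other genes named as apolipoproteins, 9 of 19 had a base mean of at least 10, and the median level was 3.05. The highest were *Apoa2* (402), *Apol8* (112) and *Apoo* (73.7), and *Apoa4* was listed at 0. Not all genes of this list encode apolipoproteins of lipoprotein particles. *Apobr* is a receptor gene, and *Apoo* and *Apool* encode mitochondrial proteins. These passed the floor, with base means of 45.8, 92.5 and 101. *Apoa2* encodes a protein of plasma high density lipoprotein made by the liver. It stood 5.38 times above *Apoc1* (95% counting interval 4.86 to 5.96), or 3.99 times with the longest transcript and 3.35 times with the coding length. *Apoe* stood 38.3 times above *Apoa2* (36.6 to 40.1), or 56.1 times with the longest transcript. *Alb*, the albumin gene of the liver, had a base mean of 46.8. *Apoa1*, which encodes the main acceptor of *Abca1* cargo in plasma, was at 18.5, and *Apob*, the gene of the core protein of LDL, was at 0.285.

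Receptors and their adaptors were present for 16 of 17 genes, with *Sort1* (1382), *Scarb2* (1145) and *Lrp1* (1085) the highest. *Lrp1* encodes a large receptor that takes up particles with apolipoprotein E. *Vldlr* had 200.3, *Lrp8* had 176, and *Trem2*, a microglial receptor for lipids and apolipoproteins, had 66.4.

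Of the other ABC transporters, 12 of 14 passed the same floor, with *Abca2* (2428), *Abcg4* (386) and *Abca3* (346) on top. *Abca2*, known from oligodendrocytes, stood 18.9 times above *Abca1*. *Abcg4*, the closest relative of *Abcg1*, was 1.40 times as abundant as *Abcg1* (95% counting interval 1.37 to 1.43), and the ratio was 1.03 per kilobase of coding length. *Abca7*, a relative of *Abca1* and a risk gene of Alzheimer's disease, was 2.14 times as abundant as *Abca1*, or 1.45 times with the coding length.

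Of the genes for sterol esters and lipoprotein remodelling, 7 of 11 passed, led by *Pltp* (875), *Nceh1* (427) and *Lpcat3* (184). *Soat1* stood 29.5 times above *Soat2* (95% counting interval 22.3 to 39.1), whose product does the same reaction in liver and gut, and 127 times with the coding length. *Nceh1*, which encodes a hydrolase of cholesterol esters, stood 5.52 times above *Soat1*. *Pltp*, the gene of a phospholipid transfer protein, was 1.40 times as abundant as *Lcat* (1.37 to 1.44), or 1.62 and 2.38 times with the longest transcript and the coding length.

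Of the 10 oxysterol and bile acid enzymes, 7 passed, with *Cyp51* (651), an enzyme of cholesterol synthesis, *Cyp27a1* (557) and *Cyp46a1* (376) the highest. *Ch25h* (17.9) stood far below *Cyp46a1* and *Cyp27a1*, which make other side-chain oxysterols, while *Cyp11a1* of the same list had 13.0. *Cyp46a1*, the 24-hydroxylase of neurons, was between 18.3 and 24.1 times as abundant (95% counting interval), with ratios above this interval for the longest transcript (32.6) and the coding length (29.7), and *Cyp27a1*, the mitochondrial 27-hydroxylase, was 31.1 times as abundant (27.1 to 35.7). *Cyp7b1*, whose enzyme breaks down 25-hydroxycholesterol, had 92.8, and *Cyp7a1*, the first enzyme of bile acid synthesis in the liver, had 0.156.

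Partners and co-regulators of the liver X receptors were present for 9 of 10 genes, among them *Srebf1* (440) and *Nr1h2* (425). *Nr1h2* encodes LXRβ, the other receptor of the pair, and it was 7.63 times as abundant as *Nr1h3* (95% counting interval 7.19 to 8.10), or 10.1 and 10.2 times with the other lengths. The genes of the receptor partners, *Rxra* and *Rxrb*, had 315 and 317, and *Rxrg* had 51.1.

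All 13 of 13 genes of intracellular sterol carriers passed, with a median of 346, and *Osbpl1a* (574), *Npc2* (553) and *Gramd1b* (488) were the highest. *Npc1* and *Npc2* encode the proteins that release cholesterol from lysosomes, and *Npc1* had 346. The proteins of the *Gramd1* genes carry cholesterol from the cell membrane to the endoplasmic reticulum, and their genes spanned 13.1 for *Gramd1c* to 488 for *Gramd1b*.

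**Figure D3:**
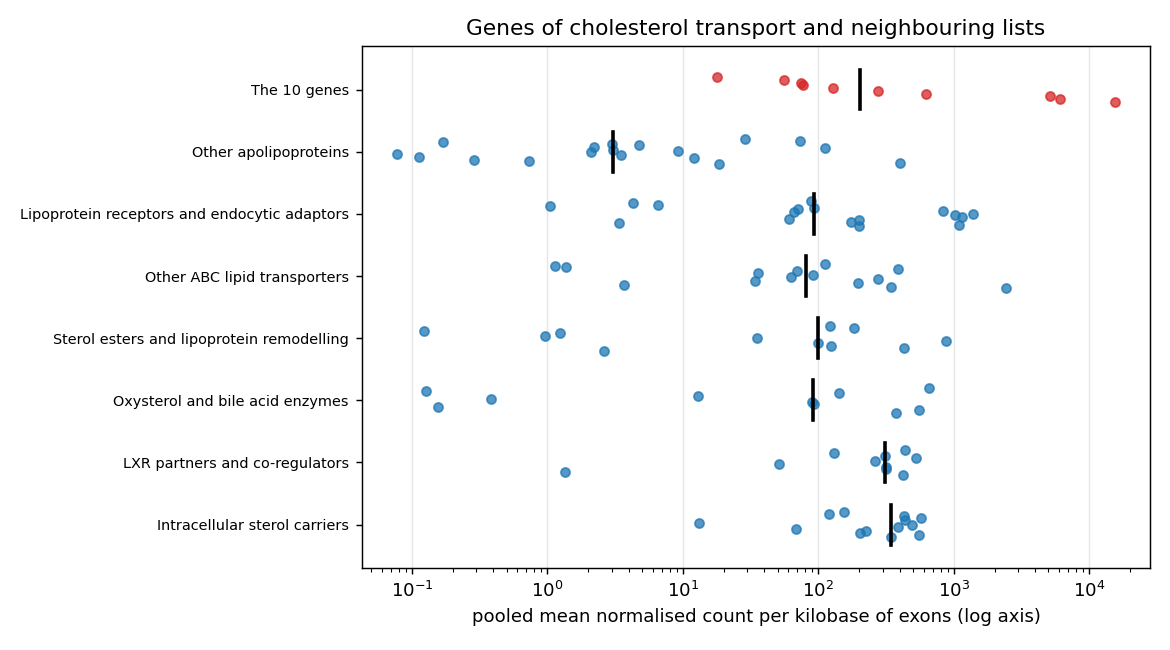
Pooled mean normalised count per kilobase of exons (log axis) for the 10 genes (red) and the 7 lists of related genes (blue), with 1 point per gene above 0 and a black bar at the median of each list. The 10 genes span 17.9 to 15399, and the list named other apolipoproteins has the lowest median, 3.05.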

How the data were processed

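RNA of 10 spinal cords, 5 WT and 5 *SOD1* G93A, was sequenced as stranded mRNA libraries. According to the methods, reads were filtered with Fastp, aligned to mm10 with HISAT2 (2.1.0 per the labels) and counted when uniquely mapped with featureCounts (2.0.2 per the labels), and the authors ran DESeq2. The annotation and strand setting are not given in the sources used here. The authors deposited 1 table. Its base mean, a signal made by the authors, is the mean over all 10 libraries of counts divided by size factors. Its 5 other columns (log2 fold change, standard error, Wald statistic, p-value and adjusted p-value) are the authors' comparison and were not used.

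Size factors were read from the lowest base means. Exon lengths and coordinates came from GENCODE M21 (GRCm38), in which 24310 of 25232 symbols (96.3%) had 1 gene, and starts came from RefSeq (GRCm38.p6). Near-identical genes lose reads when only unique matches are counted. The 10 genes and the lists were chosen with earlier results of these data known. Named from each list were the 3 highest genes and those at 0, from each marker list the highest and lowest, and the neighbours of the highest of the 10. Some items under these rules are not reported here. Any other gene was picked with its value already known. Scripts were tested on simulated data. Alternatives concerned lengths, reference genes, floors and motif letters. Python 3.11.15, numpy 2.4.6, scipy 1.17.1 and matplotlib 3.10.9 were used.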

Additional observations from a re-analysis of the deposited data

How the results depend on the processing

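The median level of the 10 genes was 202 per kilobase of all exons. It was 237 with the longest transcript and 552 with the coding length, added with the data in hand because the planned coding length needs protein sequences that were not used here. Alignments of the proteins were not run for the same reason. The percentile of *Ch25h*, the lowest of the 10 by base mean, was 29.7 among genes above 0, 20.4 among genes of at least 1, 7.41 among genes of at least 10 and 41.6 among all genes listed. The number of genes of the 7 lists past the floor was 73 at a base mean of 10, 86 at a base mean of 1 and 93 above 0. The share of genes whose promoter held the ideal receptor element was 0.0148% and rose to 0.278% with 1 mismatch. It was 0 of 12482 genes (0%) among those with a base mean of at least 10. The searches for the TATA box, the GC box and single copies of the receptor motif were likewise added with the data in hand. No paired analysis was possible because the result comes from no test and the table has no values of single mice, and for the same reason no mouse could be left out.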
